A study of Mus musculus with 6 samples.

Results

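Tslp, the gene for the cytokine thymic stromal lymphopoietin, and tdTomato, the red fluorescent protein that reports the Tslp locus, were followed as 2 genes among the 33697 in the count tables. Their UMIs, the molecular tags that mark single captured transcripts, were read in 6 droplet libraries. These held lamina propria cells of Flare-TSLP mice that had been sorted live for tdTomato fluorescence. The proximal small intestine (proximal jejunum) and the distal small intestine (distal ileum) had 2 libraries each, the cecum 1 and the large intestine 1. A barcode was taken as a cell if it held between 1000 and 7500 genes and between 2500 and 40000 UMIs of which less than 10% were mitochondrial, and 102534 cells met these limits. All mice carried the same reporter allele, made in C57BL/6 embryonic stem cells, in which an internal ribosome entry site and tdTomato follow the Tslp coding sequence, so that both are encoded on 1 transcript under the control of the Tslp locus. The allele also carries loxP sites, and its poly(A) signal follows tdTomato. The library kit reads transcripts from their poly(A) end, which on this allele lies nearer to tdTomato than to the Tslp sequence. No library came from mice without this allele. No treatment was given for these libraries in the sources used here, and the study describes its pooled mice as female and male and 8 to 12 weeks old. Zygosity was not given, so whether an unmodified Tslp allele was also transcribed is not known. On the GRCm39 assembly Tslp (ENSMUSG00000024379) lies on chromosome 18 from 32948436 to 32952850 on the plus strand, and no other annotated gene overlaps it.

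TSLP is an alarmin, a cytokine that barrier tissues release toward immune cells. It binds a receptor made of CRLF2 and the IL-7 receptor alpha chain and signals through JAK1, JAK2 and STAT5 in group 2 innate lymphoid cells (ILC2s), T cells, dendritic cells and basophils, which then make or promote type 2 cytokines. Epithelial cells are its best known source in skin and airway, and stromal cells of the gut wall also make it.

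Each library held 3 antibody hashtags. Hashtags 1 to 3 marked replicate 1 of both small intestinal regions, the cecum and the large intestine, whereas hashtags 4 to 6 marked replicate 2 of both small intestinal regions. The hashtags were not paired with mice in the sources used here, and each library was counted as 1 sample. Between regions p-values therefore measure the spread between libraries. Where 2 groups came from the same libraries, they measure the spread over libraries of the difference within a library. Whether libraries with the same hashtags shared mice was not given, so the libraries may not be independent. Kept cells numbered 11751 to 21299 per library, with a median of 6772 to 9413 UMIs per cell. Of 101388 distinct barcodes among the kept cells, 1140 occurred in more than 1 library. Doublet prediction marked 4.91% to 11.4% of the cells of a library, which stayed in unless stated. Several hashtags were called in 1152 to 2948 cells of a library, and these stayed in as well. The prediction marked 30.6% to 41.6% of them. Cells were assigned to classes by the UMIs of fixed marker genes that included neither Tslp nor tdTomato, and 75812 cells were fibroblast-like and 15619 were like lymphatic endothelial cells (LECs).

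Both transcripts were rare even though every cell had been sorted for tdTomato fluorescence. The 6 libraries gave 1539 Tslp UMIs and 3421 tdTomato UMIs in kept cells. A Tslp UMI was found in 1.36% and 0.736% of the cells of proximal replicates 1 and 2, in 2.00% and 1.03% of those of distal replicates 1 and 2, in 1.54% of cecal cells and in 1.70% of large intestinal cells. The tdTomato UMI was seen in 2.36% and 1.38% of proximal cells, 4.21% and 1.71% of distal cells, 4.39% of cecal cells and 4.26% of large intestinal cells, in the same order of libraries. The transcript of the reporter was thus not detected at this depth in most of the sorted cells of each library. Most positive cells held a single UMI, which was so in 1092 of the 1171 fibroblast-like cells with Tslp and in 2369 of the 2627 with tdTomato, and no fibroblast-like cell held more than 4 Tslp UMIs.

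Free RNA carried both transcripts at about the level of the cells. A level in CPM counts the UMIs of a gene for each 1e6 UMIs in the same cells or, for free RNA, in barcodes with 100 or fewer UMIs. In free RNA Tslp was at 0.690 and 0.645 CPM in the proximal replicates, 2.30 and 0.879 CPM in the distal replicates, 2.71 CPM in the cecal and 2.22 CPM in the large intestinal library, each from 4 to 14 UMIs. In kept cells the Tslp level was 1.71 ± 0.645 CPM (SD, n = 6 libraries) against 1.57 ± 0.934 CPM in free RNA, and it was higher in the cells of 4 of 6 libraries (difference of 0.12 ± 0.31 on the log2 scale after adding 1 CPM, two-sided exact sign-flip permutation test over libraries, p = 0.438). For tdTomato the cells had 3.95 ± 2.08 CPM and free RNA 4.62 ± 2.90 CPM, with the cells higher in 2 of 6 libraries (difference of -0.09 ± 0.40, exact permutation p = 0.594). The cecum, the large intestine and distal replicate 1 had the highest levels both in cells and in free RNA, for both genes. The sum of all cells therefore did not differ from free RNA beyond the spread of this difference over libraries for either gene. A test of 6 pairs cannot give a p below 0.0312. The levels by cell class follow, and the classes came from the same libraries in unequal numbers.

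Most UMIs of the 2 transcripts were found in fibroblast-like and LEC-like cells, and the other classes together held few. These 8 classes, which were blood endothelial-like, pericyte-like, smooth muscle-like, glia-like, T cell or ILC-like, B or plasma cell-like, myeloid-like and epithelial-like cells, together numbered 3875 cells with a median of 6762 UMIs. They held 7 Tslp UMIs, or 0.198 CPM (95% exact Poisson interval 0.0797 to 0.409), and 8 tdTomato UMIs, or 0.227 CPM (0.0979 to 0.447). These intervals cover counting error only. By comparison the fibroblast-like cells of the 6 libraries held 1260 Tslp UMIs, or 1.81 CPM (1.71 to 1.91), and 2948 tdTomato UMIs, or 4.23 CPM (4.08 to 4.39). The LEC-like cells held 147 Tslp UMIs, or 1.36 CPM (1.15 to 1.60), and 240 tdTomato UMIs, or 2.22 CPM (1.95 to 2.52). These sums pool libraries unequally, since 5523 and 6281 of the LEC-like cells came from proximal and distal replicate 2. In these 2 libraries Tslp was higher in LEC-like than in fibroblast-like cells, whereas it was lower in the other 4. Of the few UMIs in the 8 other classes, pericyte-like cells, contractile cells that wrap capillaries, held 2 of Tslp and 6 of tdTomato in 622 cells. This was 1.45 CPM of tdTomato (0.532 to 3.16), an interval that overlapped with that of LEC-like cells, and myeloid-like cells held 2 and 2 in 247 cells. Blood endothelial-like cells had 1 Tslp and 0 tdTomato UMIs in 1291 cells, and B or plasma cell-like cells had 2 and 0 in 932 cells. In the 72 epithelial-like cells neither transcript was found, which allows a share of cells with a UMI of up to 4.17%. The methods describe the stripping of epithelium before digestion for the small intestine, and 50 of these 72 cells were large intestinal. So few cells do not describe the epithelium. Neither transcript was found in the 312 T cell or ILC-like, 140 glia-like or 259 smooth muscle-like cells. These zeros allow up to 1.78, 3.26 and 1.28 CPM of either gene, so they do not show absence.

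**Figure D1:**
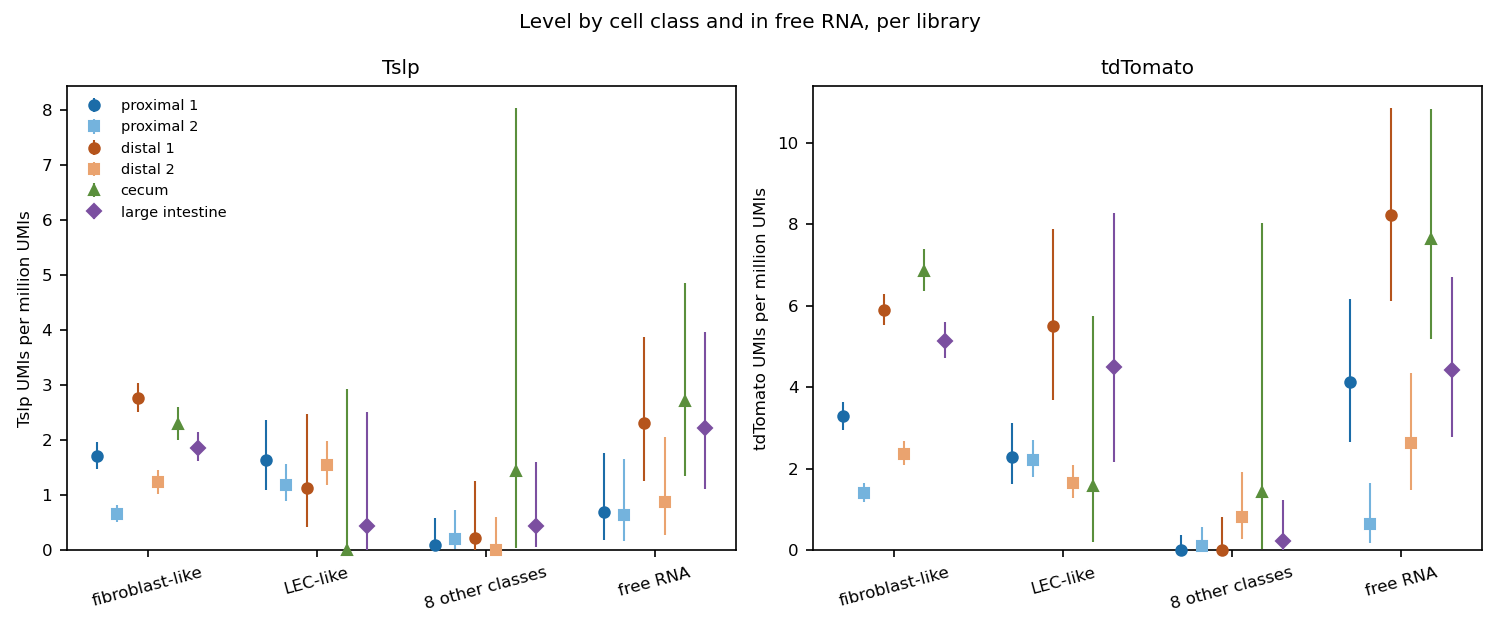
Tslp (left) and tdTomato (right) levels in CPM for fibroblast-like cells, LEC-like cells, the 8 other classes together and free RNA (barcodes of 100 or fewer UMIs). Each point is 1 library with its exact 95% Poisson interval. The other classes lie below the fibroblast-like cells in all 6 libraries for both genes, and free RNA reaches 8.23 CPM of tdTomato in distal replicate 1.

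Within the fibroblast-like cells, which make the collagen-rich matrix of the lamina propria, Tslp was at 1.70 and 0.655 CPM in proximal replicates 1 and 2, at 2.77 and 1.23 CPM in distal replicates 1 and 2, at 2.29 CPM in the cecal and at 1.86 CPM in the large intestinal library. The tdTomato level was 3.29 and 1.41 CPM in the proximal, 5.91 and 2.37 CPM in the distal, 6.87 CPM in the cecal and 5.15 CPM in the large intestinal fibroblast-like cells. Replicate 2 of each small intestinal region had the lowest levels of both genes, and the order of the libraries was the same for the 2 genes except that distal replicate 1 led for Tslp and the cecum for tdTomato. For Tslp the counting intervals of neighbours in this order overlapped from distal replicate 1 down to proximal replicate 1 and were apart below it. For tdTomato only those of distal replicate 1 and the large intestine overlapped. The number of tdTomato UMIs for each Tslp UMI was 1.92 to 2.15 in the 4 small intestinal libraries, 3.00 in the cecal and 2.76 in the large intestinal library. This is a ratio of counts, and the capture of the 2 sequences was not calibrated.

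In LEC-like cells, which line the lymph vessels and the lacteals of the villi, Tslp was at 1.64 and 1.19 CPM in the proximal and at 1.14 and 1.55 CPM in the distal replicates, at 0 CPM in the cecal and at 0.450 CPM in the large intestinal library. Only 231 cecal and 254 large intestinal cells were LEC-like, with 0 and 1 Tslp UMIs, and 0 UMIs in the cecum allows up to 2.38 CPM. The tdTomato level of LEC-like cells was 2.28 and 2.22 CPM in the proximal and 5.49 and 1.65 CPM in the distal replicates, 1.59 CPM in the cecal and 4.498 CPM in the large intestinal library. The value of distal replicate 1 rested on 1 cell, which held 16 of the 29 tdTomato UMIs and carried 2 hashtags, and the level was 2.47 CPM without it. Another 2 LEC-like cells, both of proximal replicate 2, held 11 and 10 tdTomato UMIs, and the highest count in a fibroblast-like cell was 14. Such cells were exceptional, since 169 of the 187 LEC-like cells with tdTomato held 1 UMI.

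Fibroblast-like and LEC-like cells did not differ in either transcript beyond the spread of the difference over libraries. Tslp was higher in fibroblast-like cells in 4 of 6 libraries, with means of 1.75 and 0.994 CPM, and the log2 fold change fitted within libraries was 0.10 ± 0.40 (SE, edgeR quasi-likelihood test, adjusted p = 0.832). For tdTomato the means were 4.16 and 2.96 CPM, 5 of 6 libraries had more in fibroblast-like cells and the log2 fold change was 0.22 ± 0.26 (adjusted p = 0.475). By contrast 67.2% of the 18019 genes tested differed between these classes. With the marker cut-offs doubled, the tdTomato difference became 0.63 ± 0.23 and passed the threshold (adjusted p = 0.0387), and the Tslp difference turned to -0.19 with cells thinned to 2500 UMIs. Fibroblast-like cells were the more numerous class in every library and made up 73.9% of all kept cells. Of the cells with a Tslp UMI 82.6% were fibroblast-like, and of those with a tdTomato UMI 87.2%.

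Deeper cells were more often positive, whereas the mean level in CPM of fibroblast-like cells fell by less than its SD. In the 25% of cells with the fewest UMIs 0.971 ± 0.374% of the fibroblast-like cells had a Tslp UMI, and in the 25% with the most 2.15 ± 0.617% (SD, n = 6 libraries). The Tslp level went from 1.98 ± 0.9 to 1.66 ± 0.574 CPM over the same groups. In tdTomato the share went from 2.22 ± 1.34% to 4.72 ± 1.82%, and the level from 4.76 ± 3.53 to 3.90 ± 1.79 CPM. The cecum departed from this, with tdTomato at 11.2 CPM in its shallowest and 4.77 CPM in its deepest fibroblast-like cells. In LEC-like cells the mean levels were higher in deeper cells, at 0.762 ± 1.11 and 1.40 ± 0.789 CPM for Tslp and at 0.865 ± 0.766 and 4.87 ± 4.08 CPM for tdTomato. The latter mean was carried by distal replicate 1 and the large intestine, at 10.1 and 10.2 CPM, and the deepest LEC-like cells of the other 4 libraries lay between 1.80 and 2.91 CPM. Shares were therefore also read at a fixed depth. After each cell was thinned to 2500 UMIs, 0.456% of fibroblast-like and 0.220% of LEC-like cells kept a Tslp UMI on average over libraries (1.46% and 0.602% before thinning), and 1.04% and 0.553% kept a tdTomato UMI (3.30% and 1.44%). LEC-like cells were the shallower class, with a median of 6064 UMIs over all libraries against 8380.5 in fibroblast-like cells.

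Among fibroblasts the trophocyte-like cells, which had been gated on Grem1, Ackr4, Cd34, Dkk2, Rspo3 and Cd81 and resemble the cells that feed the crypt stem cell niche with WNT agonists and BMP antagonists, had the highest mean Tslp level over the 6 libraries, 2.35 ± 0.971 CPM (SD), against 1.65 ± 1.20 CPM in fibroblast-like cells that passed no subset gate and 0.959 ± 0.780 CPM in subepithelial-like cells. Over the 6 libraries together, 45.4% of the cells with Tslp and 46.3% of those with tdTomato were trophocyte-like, against 32.2% of all kept cells. Distal replicate 1 alone held 307 of these 644 cells with Tslp and 682 of the 1394 with tdTomato. Their Tslp level was 2.05 and 0.823 CPM in the proximal replicates, 3.12 and 1.78 CPM in the distal replicates, 3.34 CPM in the cecal and 2.99 CPM in the large intestinal library. Subepithelial-like cells were gated on Foxl1, Procr, Agt, Nrg1, Sox6, Bmp5, Bmp7, Wnt4 and Wnt5a, genes of the telocytes that lie beneath the epithelium. In these cells Tslp was at 2.06 and 0.551 CPM in the proximal, 0 and 0.360 CPM in the distal, 1.44 CPM in the cecal and 1.34 CPM in the large intestinal libraries. The 476 subepithelial-like cells of distal replicate 1 gave 0 Tslp UMIs, which allows up to 0.775 CPM. Subepithelial-like cells were below trophocyte-like cells in 5 of 6 libraries, and in proximal replicate 1 the levels did not differ beyond counting error.

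Mean tdTomato levels over the 6 libraries had the same order, at 5.45 ± 2.69, 3.82 ± 3.83 and 2.88 ± 1.68 CPM (SD). In the 4 small intestinal libraries alone, however, subepithelial-like cells had a higher mean than fibroblast-like cells without a subset gate. These means were 2.17 ± 1.64 and 1.61 ± 1.04 CPM, against 4.14 ± 2.16 CPM in trophocyte-like cells. In trophocyte-like cells tdTomato was at 3.98 and 1.99 CPM in the proximal replicates, 7.12 and 3.49 CPM in the distal replicates, 7.20 CPM in the cecal and 8.96 CPM in the large intestinal library. In subepithelial-like cells it was at 4.003 and 0.866 CPM, 3.10 and 0.719 CPM, 4.48 CPM and 4.12 CPM, in the same order. In proximal replicate 1 a single cell held 14 of these UMIs, and the level was 2.31 CPM without it. In the 4 small intestinal libraries the log2 fold change of subepithelial-like against trophocyte-like cells was -1.23 ± 0.33 for tdTomato (SE, edgeR with library as a block, adjusted p = 0.0149) and -1.38 ± 0.54 for Tslp (adjusted p = 0.0638), against a background of 56.2% of the 16604 genes tested. The tdTomato call was lost without distal replicate 1 (log2 fold change -1.17, adjusted p = 0.0564), with cells thinned to 2500 UMIs (-0.91, adjusted p = 0.0593) and without the block (-1.35, adjusted p = 0.0879). Tslp missed the threshold, but passed it in 6 of 12 alternatives, with all 6 libraries among them (-1.45 ± 0.44, adjusted p = 0.0262, added after the data had been seen). Counts were small, with 28 Tslp and 64 tdTomato UMIs in the subepithelial-like cells of these 4 libraries.

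**Figure D2:**
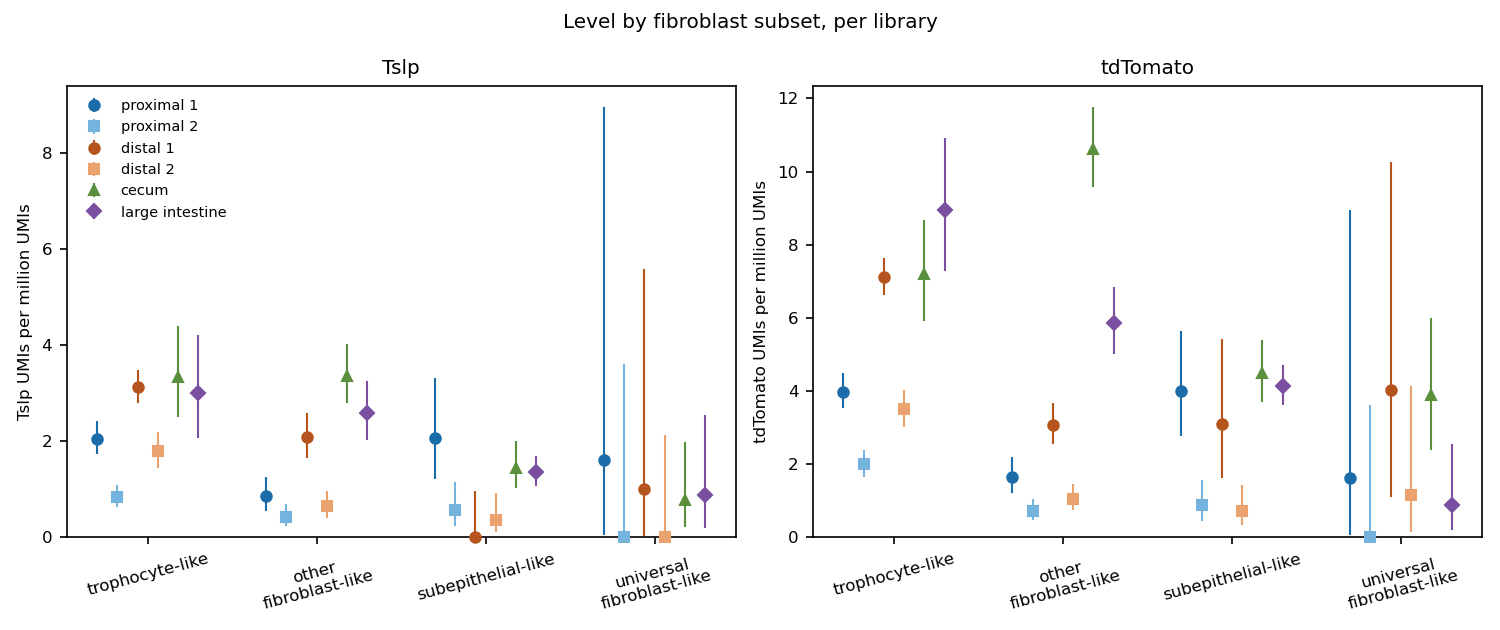
Tslp (left) and tdTomato (right) levels in CPM for the 4 gated groups of fibroblast-like cells. Each point is 1 library with its exact 95% Poisson interval. Trophocyte-like cells lie above subepithelial-like cells in 5 of 6 libraries for both genes, and the other fibroblast-like cells of the cecum stand highest for tdTomato at 10.6 CPM.

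Fibroblast-like cells that passed no subset gate held more of both transcripts in the large bowel. Their Tslp level was 0.841, 0.410, 2.08 and 0.634 CPM in proximal replicates 1 and 2 and distal replicates 1 and 2, and 3.35 and 2.58 CPM in the cecum and the large intestine. Their tdTomato level was 1.65, 0.703, 3.05 and 1.04 CPM in the small intestine, 10.6 CPM in the cecum and 5.87 CPM in the large intestine. The cecum and the large intestine were above each of the 4 small intestinal libraries for both genes. For Tslp, however, the exact Poisson interval of the large intestine (2.02 to 3.24 CPM) overlapped with that of distal replicate 1 (1.65 to 2.58 CPM). With 1 library from each, no test of cecum or large intestine was made. Universal fibroblast-like cells, marked by Pi16 and Dpp4 and known as adventitial cells, held 9 Tslp and 30 tdTomato UMIs in 1468 cells, and their Tslp level over libraries was 0.708 ± 0.620 CPM (SD, n = 6).

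Subepithelial-like cells with an Lgr5 UMI, a gene known from telocytes of the villus tip, numbered 257, of which 40 were cecal and 103 large intestinal and so came from organs without villi. They gave 11 Tslp UMIs, or 4.41 CPM (95% exact Poisson interval 2.20 to 7.89), and 24 tdTomato UMIs, or 9.61 CPM (6.16 to 14.3). Of the Tslp UMIs 7 came from the 49 such cells of proximal replicate 1, and the distal libraries had 0. Tslp was higher with than without an Lgr5 UMI in 3 of 6 libraries (difference of 0.95 ± 1.56 on the log2 scale after adding 1 CPM, SD, exact permutation p = 0.312). For tdTomato the cells with Lgr5 were higher in 5 of 6 libraries (1.22 ± 1.40, exact permutation p = 0.0625). Neither difference passed the threshold, and both tests were added after the values had been seen.

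Between the proximal and the distal small intestine neither gene passed the threshold. In fibroblast-like cells Tslp had a mean of 1.18 ± 0.741 CPM in the proximal and 2.00 ± 1.08 CPM in the distal libraries (SD, n = 2 each), a log2 fold change of -0.82 ± 0.62 (SE, edgeR quasi-likelihood test, adjusted p = 1.00). For tdTomato the means were 2.35 ± 1.33 and 4.14 ± 2.5 CPM, a log2 fold change of -0.88 ± 0.62 (adjusted p = 1.00). Only 0.0103% of the 19375 genes tested, 2 genes, passed the threshold, against 139 with DESeq2 and 165 with the replicate number as a block, and neither of these fits called Tslp or tdTomato. The ranges of the regions overlapped, since proximal replicate 1 lay above distal replicate 2 for both genes. Within each hashtag set the distal library was higher, with 2.77 against 1.70 CPM of Tslp for hashtags 1 to 3 and 1.23 against 0.655 CPM for hashtags 4 to 6. In LEC-like cells the log2 fold change was -0.02 ± 0.36 for Tslp and -0.41 ± 0.56 for tdTomato (adjusted p = 1.00 for both), and 0% of the 15665 genes tested passed the edgeR test. An unadjusted p under 0.05 was found for 464 of them, which is less than 5%, and DESeq2 called 27.

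Shares of positive cells could not be told apart by a test of this size, since 2 libraries against 2 cannot give an exact permutation p below 0.333. A Tslp UMI was found in 1.07% of proximal and 1.64% of distal fibroblast-like cells as the mean of 2 libraries, a difference of -0.577 percentage points (two-sided exact permutation test, p = 0.667). The share with tdTomato was 2.09% against 3.29%, a difference of -1.20 points (exact permutation p = 0.667). With a library left out these differences ranged from -1.08 points for Tslp and -2.34 points for tdTomato without distal replicate 2 to -0.0784 and -0.0633 points without distal replicate 1. LEC-like cells differed by 0.126 points for Tslp and 0.140 points for tdTomato (exact permutation p = 0.667 for both).

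The replicates of a region were also compared when their cells were divided by hashtag. Among fibroblast-like cells with a single called hashtag, Tslp ranged from 1.30 to 2.43 CPM over the 3 hashtags of the large intestine, 1.85 to 3.30 CPM in the cecum and 0.502 to 0.622 CPM in proximal replicate 2. All 3 hashtags of proximal replicate 2 were below all those of proximal replicate 1, which lay between 0.915 and 1.476 CPM, although the exact Poisson interval of the lowest of these overlapped with theirs. In each of the 4 small intestinal libraries the fibroblast-like cells without a single called hashtag were above all 3 hashtags, at 2.18 and 0.861 CPM in the proximal and 3.20 and 1.51 CPM in the distal replicates. Their exact Poisson interval for Tslp overlapped in each of these libraries with that of the highest hashtag. For tdTomato the intervals were apart in proximal replicate 1, at 3.54 to 4.71 against 2.13 to 3.51 CPM, and overlapped in the other small intestinal libraries. These cells are left out of the levels by hashtag, and in proximal replicate 1 they were 5258 of 11998 fibroblast-like cells. In the distal small intestine the 3 hashtags of replicate 1 gave 2.34 to 3.15 CPM of Tslp and those of replicate 2 gave 0.778 to 1.49 CPM. The highest hashtag exceeded the lowest by 1.24 to 1.92 times for Tslp and by 1.08 to 1.57 times for tdTomato within a library, and exact Poisson intervals were apart for Tslp in the cecum and the large intestine and for tdTomato in the cecum. LEC-like cells were also unevenly spread over the replicates, with 2528 and 5523 in proximal replicates 1 and 2 and 802 and 6281 in distal replicates 1 and 2. Replicate 2, which carried the other hashtag set, had more LEC-like cells and lower fibroblast levels of both genes, and the part of the hashtag set in the levels cannot be told apart from that of the replicate.

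**Figure D3:**
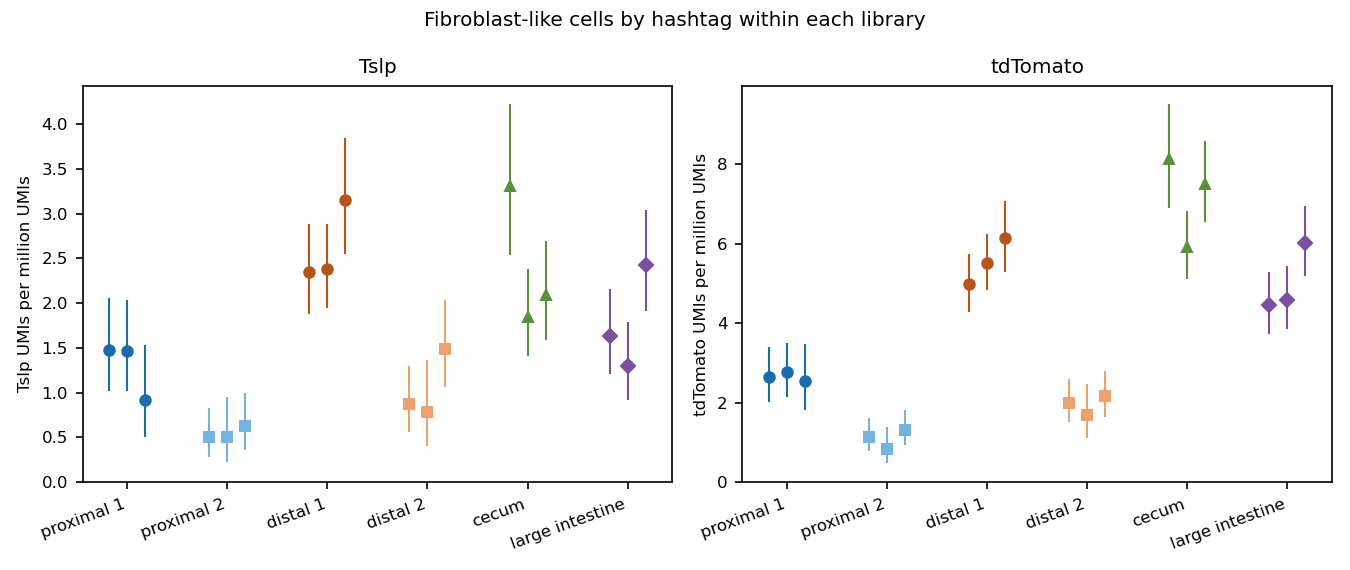
Tslp (left) and tdTomato (right) levels in CPM of fibroblast-like cells with 1 called hashtag, for the 3 hashtags of each library. Bars are exact 95% Poisson intervals. For Tslp the hashtags of distal replicate 1 lie between 2.34 and 3.15 CPM and those of proximal replicate 2 between 0.502 and 0.622 CPM.

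Tslp and tdTomato were found in the same cells more often than their separate frequencies would give. Of 1171 fibroblast-like cells with a Tslp UMI, 172 also held a tdTomato UMI, which is 14.7%, compared with 3.29% of the cells without Tslp. The share of Tslp-positive cells with tdTomato was 14.8% and 10.4% in proximal replicates 1 and 2, 11.2% and 16.0% in distal replicates 1 and 2, 17.1% in the cecal and 20.2% in the large intestinal library. Among cells without a Tslp UMI it was 2.54%, 1.40%, 4.28%, 1.99%, 4.34% and 4.21%, and so lower in each of the 6 libraries. Conversely 6.55% of cells with tdTomato held Tslp, against 1.37% of the others. If the transcripts were spread independently within 10 strata of UMIs per cell, 49.0 cells with both would be counted over the 6 libraries, and 172 were observed, 3.51 times as many. The ratio of observed to independent counts lay between 2.26 in distal replicate 1 and 6.19 in distal replicate 2. Even so, the cells with both were 4.74% of those with either transcript, so that most positive cells showed 1 of the 2. How far reading from the poly(A) end sets this overlap was not tested.

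**Figure D4:**
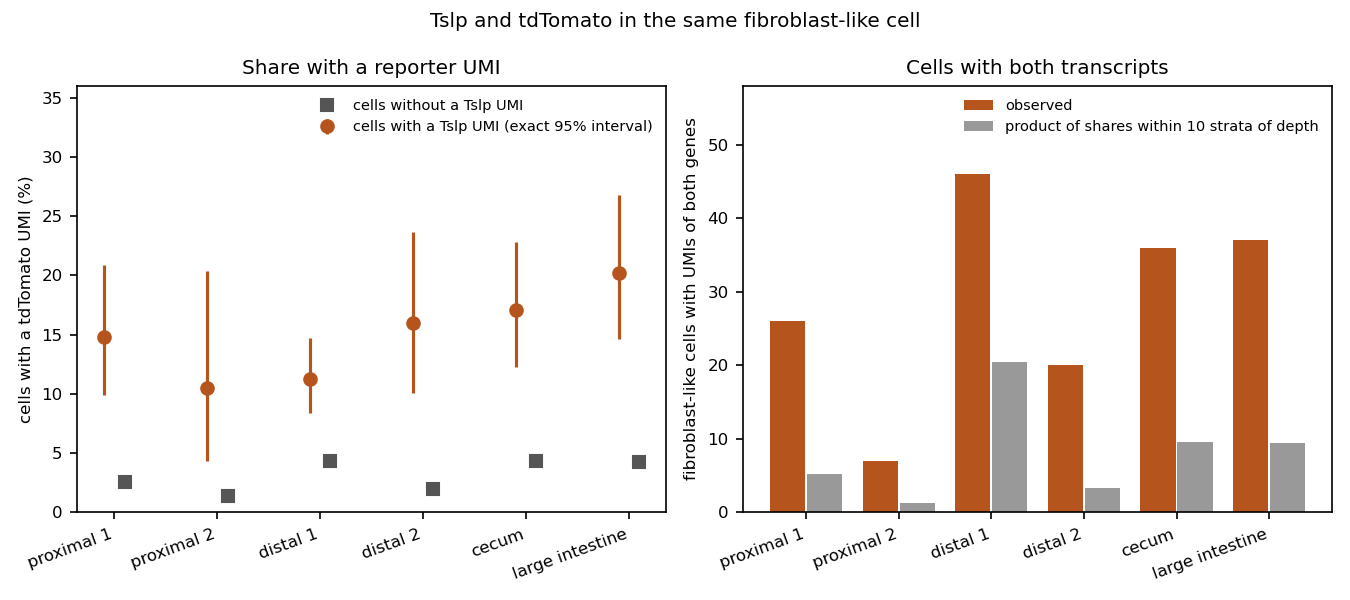
Left, share of fibroblast-like cells with a tdTomato UMI (percent) among cells with and without a Tslp UMI, for each library. Right, number of fibroblast-like cells with UMIs of both genes beside the number given by the product of the 2 shares within 10 strata of UMIs per cell. The observed number is higher in all 6 libraries, for example 46 against 20.4 in distal replicate 1.

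The Tslp level of fibroblast-like cells with a tdTomato UMI was 8.60 and 3.53 CPM in the proximal, 6.08 and 7.16 CPM in the distal, 9.15 CPM in the cecal and 7.76 CPM in the large intestinal libraries. Cells without a tdTomato UMI had 1.49 and 0.605 CPM, 2.59 and 1.07 CPM, 1.95 CPM and 1.54 CPM, in the same order. The groups did not overlap, and every library moved in the same direction, with a ratio of 2.35 in distal replicate 1 and of 4.69 to 6.67 in the others. The mean difference was 1.66 ± 0.38 on the log2 scale after adding 1 CPM (SD, n = 6, two-sided exact sign-flip permutation test, p = 0.0312, the smallest that 6 pairs allow). In LEC-like cells Tslp was higher with tdTomato in 5 of 6 libraries, with a difference of 2.23 ± 1.47 (exact permutation p = 0.0625). The cecum had 0 in both groups, and this p is the smallest that the other 5 pairs allow, so the test could not pass the threshold. These LEC-like values rest on few cells, since 12 held both transcripts, against 2.13 counted for independent transcripts within 10 strata of depth. Co-detection was seen in each of the larger fibroblast groups, with 27 cells against 4.48 in subepithelial-like, 87 against 33.3 in trophocyte-like and 42 against 13.0 in the other fibroblast-like cells.

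The cells with a Tslp UMI were then compared with as many fibroblast-like cells without one, matched on library, subset and UMIs per cell. Tslp itself chose the cells and was not tested. Of 10694 genes, 50 were higher and 24 lower in the Tslp-positive cells (edgeR with library as a block, adjusted p under 0.05), which is 0.692% of the genes tested. The reporter led the genes that were higher, with 19.6 CPM against 4.26 CPM on average, a log2 fold change of 2.01 ± 0.25 (adjusted p = 0.00243), and was higher in 6 of 6 libraries. It stayed past the threshold without each library in turn. Without the library block the fold change was 2.06 ± 0.47, its adjusted p was 1.00 and 0 genes passed (117 had an unadjusted p under 0.05, which is less than 5%), while limma-voom with the block called 89 genes and DESeq2 50. DESeq2 gave the reporter 2.21 on the log2 scale but no adjusted p. The count of 74 fell to 26 without proximal replicate 2, to 18 without distal replicate 2 and to 47 without the cecum.

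Besides the reporter, the 10 genes with the largest increase among those higher in every library included Npnt, an extracellular matrix ligand of integrins, at 32.4 against 6.66 CPM (log2 fold change 1.97 ± 0.40, edgeR adjusted p = 0.0364). Ptn, the heparin-binding growth factor pleiotrophin, was at 123 against 49.1 CPM (1.25 ± 0.21). Slc12a2, the sodium, potassium and chloride cotransporter NKCC1, was at 105 against 44.4 CPM (1.13 ± 0.14), and Ank1, an ankyrin that links membrane proteins to the cytoskeleton, was at 17.6 against 6.52 CPM (1.33 ± 0.21). A pair of interferon-induced genes was also raised, Cxcl10, a chemokine for CXCR3-bearing lymphocytes, at 259.7 against 119 CPM (0.90 ± 0.18) and Gbp4, a guanylate-binding protein, at 35.5 against 18.3 CPM (0.90 ± 0.16). The remaining ones were Pla2g7 (0.98 ± 0.19), which encodes an enzyme that degrades platelet-activating factor, Tnfrsf21 (0.89 ± 0.16), a death receptor, and Gm16685 (0.85 ± 0.17), a long noncoding gene. Npnt, Ptn, Pla2g7, Cxcl10, Gbp4, Tnfrsf21 and Gm16685 each lost the threshold when at least 1 library was left out, with adjusted p of up to 0.265 for Npnt. Slc12a2 kept it in 6 of 6 such fits and Ank1 in the 4 in which it could be tested. Other settings also moved these genes. Npnt passed in 4 of 12 of them, with a log2 fold change of 0.36 under stricter gates, Gm16685 in 3 of 13, Tnfrsf21 in 5 of 13, Gbp4 in 6 of 13 and Cxcl10 in 7 of 14, whereas Slc12a2 passed in 12 of 13.

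The 10 genes with the largest decrease fell by less. Adamdec1, a disintegrin-like metalloprotease abundant in gut fibroblasts, was at 2827 against 4165 CPM (log2 fold change -0.55 ± 0.05, edgeR adjusted p = 9.61e-05) and was lower in 6 of 6 libraries. Vipr2, a receptor for vasoactive intestinal peptide, was at 42.3 against 62.8 CPM (-0.59 ± 0.09), and Ntf3, the neurotrophin NT-3, at 49.9 against 84.1 CPM (-0.61 ± 0.13). Aldh1a2, which makes retinoic acid, was at 82.3 against 117 CPM (-0.53 ± 0.12) and Igfbp5, a binding protein for insulin-like growth factors, at 376 against 534 CPM (-0.49 ± 0.08). The other 5 were Gm32618, Rnf152, Nav2, Zfp536 and Vangl1, with log2 fold changes between -0.53 and -0.47. Adamdec1 and Vipr2 kept the threshold without each library in turn, Igfbp5 in 5 of 6 such fits, Gm32618 in 2, Nav2 in 0 and the other 5 in 1 each.

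**Figure D5:**
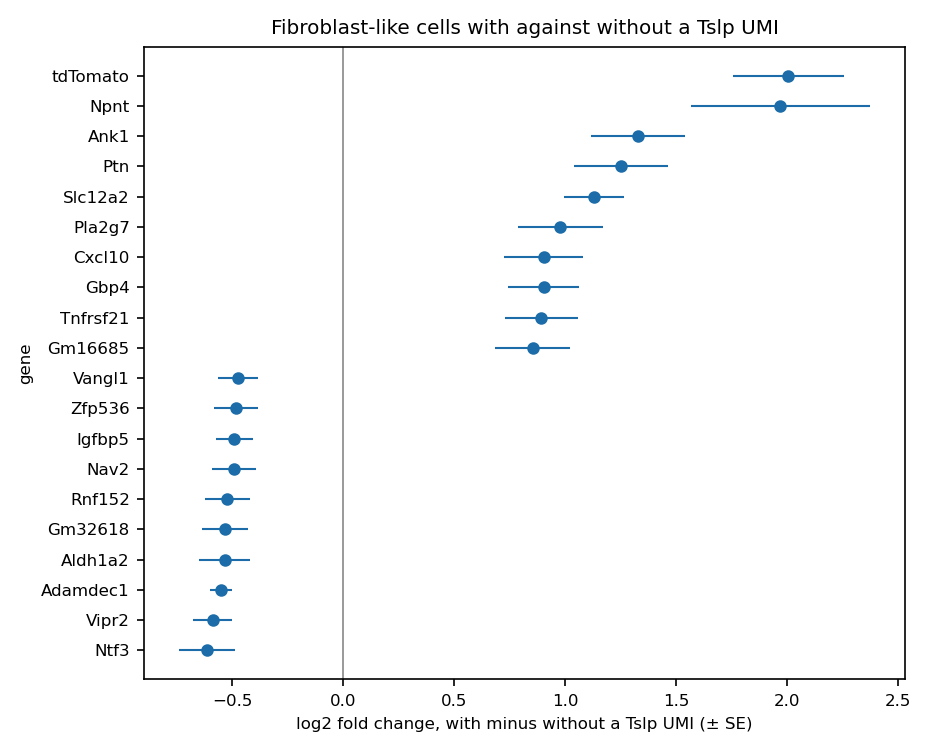
Log2 fold change (± SE) in fibroblast-like cells with a Tslp UMI against matched cells without one, for the 10 genes with the largest change in each direction. Points to the right are higher in cells with Tslp. tdTomato and Npnt lie furthest to the right at 2.01 and 1.97, and the genes that were lower lie between -0.61 and -0.47.

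The other genes of the TSLP pathway were read from a fixed list of 30 genes. None of the 19 that could be tested passed the threshold in the Tslp-positive cells (median log2 fold change -0.01, against 0.002 over all genes, of which 0.692% passed). The nearest were Il1rl1, the receptor of IL-33, at 41.5 against 13.4 CPM with a log2 fold change of 1.62 ± 0.41 (edgeR adjusted p = 0.115, higher in 5 of 6 libraries), and the transcription factor gene Nfkb1 with 0.20 ± 0.06 (adjusted p = 0.221, higher in 6 of 6). Glp2r, the receptor of the gut hormone GLP-2, did not pass it either, with 75.1 against 73.2 CPM and a log2 fold change of 0.04 ± 0.10 (adjusted p = 0.984). The alarmin gene Il33 was at 187 against 188 CPM (0.01 ± 0.06). The same list had 0 genes past the threshold of 27 tested between proximal and distal fibroblast-like cells, where 0.0103% of all genes passed, and 0 of 23 in LEC-like cells, where 0% did.

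Between fibroblast-like and LEC-like cells, whose Tslp difference did not pass the threshold, 27 of the 30 genes were tested, of which 8 were higher and 10 lower in fibroblast-like cells, against 35.7% and 31.5% of all genes in these directions. The list had a median log2 fold change of 0.02 and all genes one of 0.05. Both receptor genes passed the threshold with lower fitted levels in fibroblast-like cells. Crlf2 was at 14.8 against 38.2 CPM (log2 fold change -1.56 ± 0.20, edgeR adjusted p = 0.000181), and fibroblast-like cells were higher in 0 of 6 libraries. Il7r was at only 0.566 against 1.19 CPM (-1.03 ± 0.36, edgeR adjusted p = 0.0336), and fibroblast-like cells were higher in 2 of 6 libraries. In the signalling group Stat5a was higher in fibroblast-like cells (1.33 ± 0.08) and Jak2 lower (-0.27 ± 0.08), while Jak1 had 0.09 ± 0.11 and Stat5b 0.16 ± 0.08. Of the fellow cytokines Il7, which shares the receptor chain Il7r with TSLP, was at 7.73 CPM in fibroblast-like and 172 CPM in LEC-like cells (-4.66 ± 0.23), and Il33 was at 181 and 344 CPM without passing the threshold (-0.69 ± 0.33, adjusted p = 0.0999).

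Of 10 receptor genes for known inducers of TSLP that were tested, 5 were higher and 3 lower in fibroblast-like cells. Over all genes 35.7% were higher and 31.5% lower. F2rl1, the receptor PAR2 of proteases, was at 2.30 CPM in fibroblast-like and 109.5 CPM in LEC-like cells (log2 fold change -5.98 ± 0.41, edgeR adjusted p = 3.79e-06). Tlr3, the sensor of double-stranded RNA, was at 15.7 and 48.0 CPM (-1.64 ± 0.08) and Rxrb, a retinoid X receptor, was also lower in fibroblast-like cells (-0.39 ± 0.10). Higher in fibroblast-like cells were Tnfrsf1a, a receptor of TNF, at 117 and 53.3 CPM (1.11 ± 0.07), Vdr, the vitamin D receptor, at 0.700 and 0.235 CPM (1.67 ± 0.39), Rxra (0.52 ± 0.07) and the IL-4 and IL-13 receptor genes Il4ra (0.63 ± 0.23) and Il13ra1 (0.67 ± 0.10). Il1r1 and Glp2r did not pass the threshold, with 0.02 ± 0.48 and 0.25 ± 0.19. Areg, the growth factor amphiregulin and an output of type 2 immunity, was at 4.91 CPM in fibroblast-like and 0.0459 CPM in LEC-like cells (5.40 ± 0.45), and the IL-33 receptor gene Il1rl1 was at 14.8 and 0.591 CPM (2.83 ± 0.46). All 3 transcription factor genes, Nfkb1, Rela and Creb1, were lower in fibroblast-like cells, as were 31.5% of all genes. Their log2 fold changes lay between -0.34 and -0.25.

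Subepithelial-like cells, which had less tdTomato than trophocyte-like cells, nevertheless held more of several receptors of this list. Of 25 genes tested 10 were higher and 6 lower in subepithelial-like cells, against 26.9% and 29.3% of all genes, and the list's median log2 fold change was 0.11 against -0.01 over all genes. Il1rl1 was at 45.8 against 0.205 CPM (log2 fold change 7.55 ± 0.18, edgeR adjusted p = 5.19e-07), Gata3 at 4.17 against 0.137 CPM (4.62 ± 0.62) and Vdr at 3.08 against 0.248 CPM (3.37 ± 0.25). Rxra (1.22 ± 0.10), Il4ra (1.34 ± 0.06), Crlf2 (0.55 ± 0.08) and Il7 (0.81 ± 0.14) were higher by less. Il33 was lower in subepithelial-like cells, at 35.8 against 219.6 CPM (-2.85 ± 0.12), as was Nfkb1 (-0.76 ± 0.06). Glp2r did not pass the threshold, at 45.5 and 42.7 CPM (-0.30 ± 0.28, adjusted p = 0.394), and its fitted change and its plain means differed in sign, with 2 of 4 libraries higher in subepithelial-like cells.

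Across 55 sums of cells, each from 1 library and 1 of 13 classes or subsets with at least 50 cells, the log2 levels of Tslp and tdTomato had a Pearson correlation of 0.814. These sums share libraries and free RNA and most of them hold few UMIs of either gene, so the correlation is a description. Of 10113 genes with a mean of at least 10 CPM, Gpx3, a secreted glutathione peroxidase, was most like both, with a correlation of 0.692 with Tslp and 0.783 with tdTomato. Next to it for Tslp came Plagl1, a zinc finger transcription factor (0.691), Ccl2, a chemokine for monocytes (0.683), Lgals3bp, which binds galectins (0.679), and Ces1d, a carboxylesterase (0.672). For tdTomato they were Pdpn, which encodes podoplanin of fibroblasts and lymphatic vessels (0.779), the tenascin gene Tnxb (0.774) and the potassium channel gene Kcnn3 (0.770). The correlation of Tslp with tdTomato was higher than with any of these genes. However, tdTomato was at 3.95 CPM in kept cells, and genes of so low a level were not among those compared.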

How the data were processed

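The authors sorted live tdTomato+ cells, labeled them with hashtag antibodies, sequenced droplet libraries and counted UMIs on mm39 with the tdTomato sequence added. Cell Ranger was version 8.1.0 in the methods and 8.0.1 in the matrix headers. The deposited values are raw UMI counts of every barcode, before the removal of cells, doublets or ambient RNA that the methods describe, and other columns were not used. Total counts per library on genes were 109675337 to 206827504.

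The study's limits on cells were applied. Gates on marker UMIs per 10000 UMIs and on the number of distinct markers gave the classes, and cells in several gates were set apart. The cut-offs were set from the markers alone after their UMIs had been seen. UMIs were summed per library and class, filtered with filterByExpr (minimum count 10), scaled by TMM and tested with edgeR's quasi-likelihood test at a Benjamini-Hochberg adjusted p of 0.05, with a term for library where classes came from the same libraries. Fold changes were fitted after TMM, whereas printed CPM means are unscaled means over libraries. The SE is the fold change divided by the square root of F. A few comparisons used exact permutation over libraries of log2(CPM + 1) or of shares. Poisson and binomial intervals are exact at 95%, a count of 0 allows 3 counts, and both cover counting error only. To call a hashtag, its log count had to exceed by 2.5 robust SDs the median of cells in which another hashtag was highest. Doublets were predicted with Scrublet at 0.8% per 1000 cells and taken out only as an alternative.

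Named genes are Tslp, tdTomato, the 30 pathway genes, the 5 genes most like each (1 of which is not reported here), and in Tslp-positive cells the 10 genes per direction with the largest change past the threshold, a mean of at least 10 CPM and 1 direction in every library. The members, lists and comparisons were chosen with earlier results of these data known. The fit across genes was tested on simulated data. No sequence is shown for either gene. The software comprised edgeR 4.0.16, DESeq2 1.42.0 and limma 3.58.1 in R 4.3.3, and scanpy 1.11.5 with Scrublet, scipy 1.17.1, numpy 2.4.6 and pandas 2.3.3 in Python 3.11.15.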

Additional observations from a re-analysis of the deposited data

How the results depend on the processing

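Depth limits every value here, since most positive cells held 1 UMI, and the smaller classes held under 20 UMIs of either gene in several libraries. Fibroblast-like against LEC-like cells gave a log2 fold change of Tslp of -0.19 with cells thinned to 2500 UMIs and of -0.087 to 0.55 with a library left out, and one of tdTomato of 0.63 with stricter gates. For subepithelial-like against trophocyte-like cells, Tslp passed the threshold at -1.76 with DESeq2, -1.43 without a filter on low counts, -1.64 without cells of several hashtags, -1.53 with the stricter cell filter, -1.18 with looser gates and -1.45 with all 6 libraries, and lay between -2.18 and -0.99 with a library left out, while tdTomato missed it at -0.91 when thinned and at -1.35 without the library block and lay between -1.77 and -0.93 with a library left out. Thinning left too few counts to test Tslp there and tdTomato in Tslp-positive cells. Genes called between proximal and distal fibroblast-like cells numbered 139 with DESeq2, 16 without the filter, 1 without cells of several hashtags or when thinned, 0 with limma-voom, stricter gates or 10% of free RNA subtracted, and 0 to 21 with a library left out, and in LEC-like cells 27 with DESeq2, 132 without the filter and 0 to 6 with a library left out. The replicate number as a block gave 165 and 44 such genes. The deviations of same-numbered libraries correlated at 0.53 in fibroblast-like and 0.34 in LEC-like cells, and the same-numbered libraries also shared a hashtag set, but whether they shared mice or a day was not given. With the block no call on Tslp or tdTomato changed. In fibroblast-like cells the change with a library left out was -1.72 to -0.01 for Tslp and -1.67 to 0.036 for tdTomato. In LEC-like cells Tslp changed sign to 0.033 with DESeq2, 0.079 without cells of several hashtags, 0.023 with the stricter cell filter, 0.096 with stricter gates and 0.053 with free RNA subtracted (-0.22 to 0.29 with a library left out), and tdTomato to 0.14 with limma-voom and 0.41 without cells of several hashtags (-1.28 to 0.47). The difference in shares of LEC-like cells was -0.150 points for tdTomato when thinned and -0.0355 to 0.287 points for Tslp and -0.0439 to 0.325 points for tdTomato with a library left out. In Tslp-positive cells the called genes numbered 350 without the filter, 49 with stricter and 33 with looser gates, 8 when thinned, 0 without the library block, 309 against all negative cells and 18 to 62 with a library left out, and tdTomato stood at 2.06 without the block. Tslp by reporter UMI in fibroblast-like cells differed by 0.56 with 10 CPM added, by 2.18 with 0.1 CPM added and by 1.60 to 1.80 with a library left out, and in LEC-like cells by 0.82 with 10 and 3.20 with 0.1 CPM added. With a library left out 5 pairs cannot give p below 0.0625. The causes of these changes were not tested.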

Other observations

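Cells in several gates and cells in none entered no comparison between classes or regions. The 6618 cells in several gates had a median of 12519 UMIs and held 121 Tslp UMIs, or 1.36 CPM (95% exact Poisson interval 1.13 to 1.62), and 204 tdTomato UMIs, or 2.29 CPM (1.99 to 2.63). The 610 cells in no gate held 4 Tslp and 21 tdTomato UMIs, and 1 of them, in distal replicate 2, held 13 of the tdTomato UMIs and 2 of Tslp among its 10214 UMIs. Over all classes 8 cells held at least 5 tdTomato UMIs, of which 6 also held Tslp and 0 were marked as doublets by Scrublet. The LEC-like cell of distal replicate 1 among them carried 2 hashtags, and Scrublet left most cells with several hashtags unmarked.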
